A study of Homo sapiens with 2 samples.

Results

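The genes described are the 3 TGF-beta ligands TGFB1, TGFB2 and TGFB3, the latent ligand binding protein LTBP1, the type I receptors TGFBR1 and ACVRL1, the type II receptor TGFBR2, and the co-receptors TGFBR3 and ENG (endoglin). They were found by gene number in both deposited tables, and all 9 of 9 were listed in both, of 18518 gene numbers in all. RNA was sequenced from 1 library of H1 cells labelled MEIS1-/- and 1 library of H1 cells labelled wild type, H1 being an established human embryonic stem cell line. MEIS1 encodes a homeodomain transcription factor that works with HOX and PBX proteins. Per the labels, both cultures were treated in a first step of 2 days with BMP4 at 50 ng/ml and activin A at 40 ng/ml, were moved for a second step, given as 2 days, to bFGF at 50 ng/ml and VEGF at 40 ng/ml, and were taken at day 3 of differentiation towards blood. Since day 3 falls before the end of steps of 2 days each, the time spent in the second step is not clear from the labels. The labels did not give the number of clones or cultures or the deleted part of MEIS1.

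TGF-beta ligands are secreted as inactive dimers in which each mature ligand stays wrapped in its own propeptide, and LTBP proteins anchor this complex in the extracellular matrix until integrins or proteases free the ligand. The freed ligand binds TGFBR2, which then recruits and activates TGFBR1, and TGFBR1 phosphorylates SMAD2 and SMAD3. In endothelium a related receptor complex is built from ACVRL1 (also called ALK1), BMPR2 and ENG, which is bound by BMP9 (gene GDF2) and BMP10 and signals through SMAD1, SMAD5 and SMAD9. Loss-of-function variants of ENG or ACVRL1 cause hereditary haemorrhagic telangiectasia, a disease of malformed vessels, and in mouse embryos Eng is needed for vessel formation and marks early blood and endothelial progenitors.

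The library labelled MEIS1 deleted held 5296431 counts over 17696 listed genes and the wild-type library 5202877 over 17562. MEIS1 had 68 counts (4.01 FPKM) in the library labelled deleted and 89 counts (5.34 FPKM) in the wild-type library, a log2 ratio of -0.40 (-0.88 to 0.07). This interval included no difference, and the tables gave a single value per gene, so the MEIS1 level could not be used to check the genotype label. With 1 library per genotype there was no test between genotypes and no replicate check, and every difference compares these 2 libraries. Ratios are of counts scaled by TMM library sizes with a pseudocount of 1, each with an exact 95% counting interval, and a gene is called higher or lower where that interval excluded a ratio of 1. FPKM, the count per kilobase of gene length and of library size, is used for levels between genes.

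Of the 9 genes, 5 were higher in the library labelled deleted (TGFB2, TGFB3, TGFBR1, ACVRL1 and ENG), 2 were lower (TGFBR3 and LTBP1), and TGFB1 and TGFBR2 had intervals that included 1. Among all 14381 genes compared, those with at least 10 counts in a library, 15.4% were called higher and 14.7% lower, 30.1% in all. The interval narrows as counts grow: among the 10865 genes with at least 50 counts in a library, 17.4% were higher and 16.7% lower, 34.1% in all, against 4 higher and 2 lower of the 8 members that reached 50 counts. ENG and TGFB3 were at least 2-fold higher, a call made for 2.90% of all compared genes, and no member was at least 2-fold lower, a call made for 2.95%. The 2-fold limit applies to the ratio itself: the intervals began at 1.70-fold for ENG and 1.64-fold for TGFB3. The median log2 ratio of the 9 members was 0.29, beside 0.0032 over all compared genes.

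**Figure D1:**
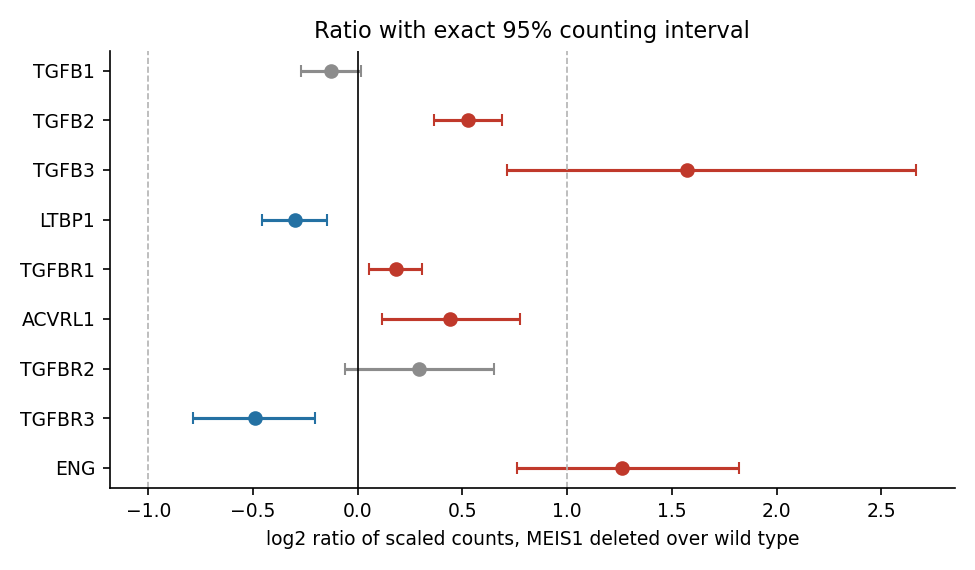
Log2 ratio of scaled counts (x axis), the library labelled MEIS1 deleted over wild type, for each of the 9 genes; bars are exact 95% counting intervals, red marks intervals above 0, blue below 0 and grey those that include 0, and dashed lines mark 2-fold. TGFB3 at 1.57 and ENG at 1.26 lie farthest to the right, and TGFBR3 at -0.49 farthest to the left. The intervals of TGFB3 and ENG reach below the 2-fold line but stay above 0.

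TGFB1, the most widely expressed of the ligands, dominated the ligand transcripts. It had 790 counts (67.5 FPKM) in the library labelled deleted and 854 counts (74.3 FPKM) in the wild-type library. The log2 ratio was -0.13 (-0.27 to 0.01), so a difference was not detectable at this depth. TGFB1 had the highest FPKM of the 9 genes in both libraries and lay at or above 94.8% of listed genes in the library labelled deleted and 95.2% in the wild-type library. HNRNPUL1 lies on the opposite strand with exons that overlap those of TGFB1 in the GENCODE v29 annotation, and the labels did not say whether reads kept their strand. HNRNPUL1 had 1647 counts in the library labelled deleted and 1685 in the wild-type library. Exons of opposite-strand genes also overlap those of ENG (AL162586.1), LTBP1 (AC019127.1) and TGFB3 (TGFB3-AS1). TGFB2 is overlapped on its own strand by TGFB2-OT1. None of these other genes was found by name in either table, so their reads could not be told apart from those of the members.

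TGFB2, the ligand that needs the co-receptor TGFBR3 for strong binding to TGFBR2, had 755 counts (24.0 FPKM) in the library labelled deleted and 519 counts (16.8 FPKM) in the wild-type library. It was 1.44-fold higher (1.29 to 1.61), and 9.55% of all compared genes had a ratio at least as high. TGFB3, which in mouse is needed for fusion of the palate, was the least abundant member in both libraries, with 41 counts in the library labelled deleted and 13 in the wild-type library. Its level was 2.43 FPKM in the library labelled deleted and 0.78 FPKM in the wild-type library. It was 2.97-fold higher (1.64 to 6.35), a wide interval because the wild-type value rests on 13 counts. Of all compared genes, 204, or 1.42%, had a ratio at least as high, and genes of such low counts scatter most widely, as the plot of all compared genes shows.

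The mix of ligands differed more than their sum. Together the 3 ligands reached 93.9 FPKM in the library labelled deleted and 91.9 FPKM in the wild-type library. TGFB1 made up 71.8% of this sum in the library labelled deleted and 80.8% in the wild-type library. TGFB2 made up 25.6% and TGFB3 2.59% in the library labelled deleted, against 18.3% and 0.849% in the wild-type library. A share within a library needs no scaling between libraries. Of the summed counts of TGFB1 and TGFB2, TGFB2 held 48.9% in the library labelled deleted (exact 95% binomial interval 46.3 to 51.4) and 37.8% in the wild-type library (35.2 to 40.4). Of those of TGFB1 and TGFB3, TGFB3 held 4.93% (3.56 to 6.63) in the library labelled deleted and 1.499% (0.801 to 2.55) in the wild-type library. In neither pair did the intervals of the libraries overlap, and these pairs were chosen after the values were seen.

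**Figure D2:**
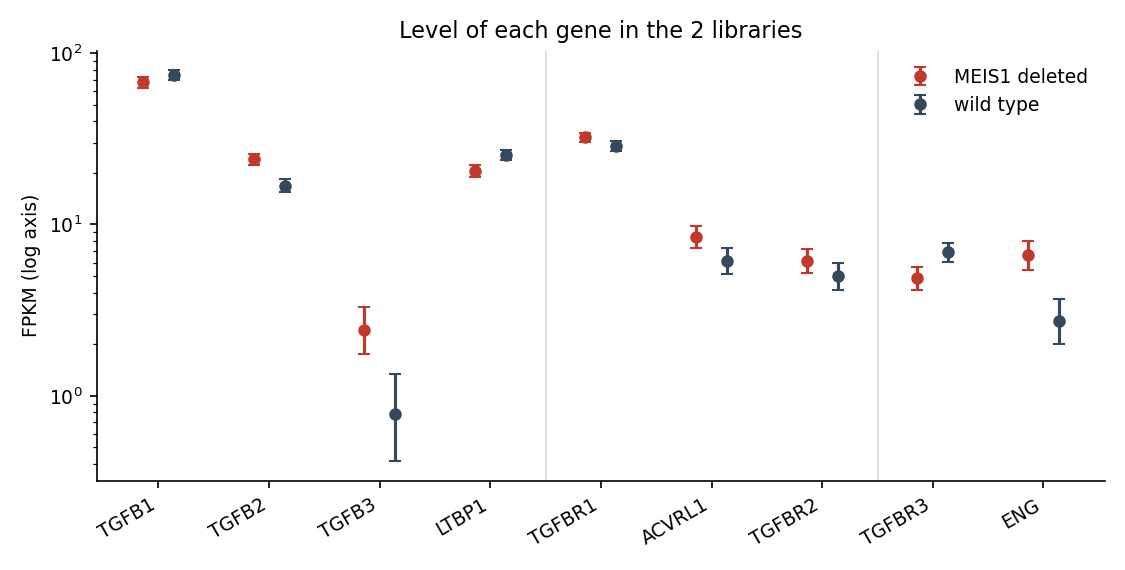
FPKM (y axis, log scale) of each gene in the library labelled MEIS1 deleted (red, left of each pair) and in the wild-type library (dark, right); bars are exact 95% Poisson intervals of the count behind each value, and grey lines part ligands with LTBP1, signalling receptors and co-receptors. TGFB1 is highest and TGFB3 lowest in both libraries, and the bars of ENG, at 6.63 FPKM in the library labelled deleted and 2.75 FPKM in the wild-type library, do not overlap.

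LTBP1, which binds the latent ligand covalently and stores it in the matrix, had 631 counts (20.5 FPKM) in the library labelled deleted and 770 counts (25.5 FPKM) in the wild-type library. It was 1.23-fold lower (1.11 to 1.37). Its direction was the opposite of that of TGFB2 and TGFB3. Per count of TGFB1 the difference was smaller: LTBP1 held 44.4% (41.8 to 47.0) of the counts of LTBP1 and TGFB1 in the library labelled deleted and 47.4% (44.96 to 49.9) in the wild-type library, and these intervals overlapped. The table's length of LTBP1, an average over its 5 listed transcripts, was 5758 bases in the library labelled deleted and 5764 bases in the wild-type library, a difference of -0.11%. The estimated mix of LTBP1 transcripts thus differed little in length.

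The type I receptors were both higher, by small amounts. TGFBR1 had 1113 counts (32.2 FPKM) in the library labelled deleted and 972 counts (28.7 FPKM) in the wild-type library, and was 1.13-fold higher (1.04 to 1.24). It was the most abundant receptor of the group in both libraries, and 28.5% of all compared genes had a ratio at least as high. ACVRL1, the type I receptor of endothelium, had 187 counts (8.45 FPKM) in the library labelled deleted and 136 counts (6.16 FPKM) in the wild-type library. It was 1.36-fold higher (1.09 to 1.71), and 11.9% of compared genes had a ratio at least as high. The estimated counts of ACVRL1 were not whole (187.46 in the library labelled deleted and 135.84 in the wild-type library), so some of its reads were divided with other genes and its ratio is less certain than the interval shows. Of the counts of ACVRL1 and TGFBR1, ACVRL1 held 14.4% (12.5 to 16.4) in the library labelled deleted and 12.3% (10.4 to 14.4) in the wild-type library, with intervals that overlapped.

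TGFBR2, the type II receptor that binds the ligand, had 151 counts (6.12 FPKM) in the library labelled deleted and 122 counts (5.0 FPKM) in the wild-type library. The log2 ratio was 0.29 (-0.06 to 0.65), an interval that included no difference and also a 1.57-fold higher level. Within each library TGFBR1 exceeded TGFBR2 by FPKM, 5.26-fold in the library labelled deleted and 5.74-fold in the wild-type library. TGFBR2 was thus the scarcer partner of the TGF-beta receptor pair on the transcript level in both libraries. Its table length was 4629 bases in the library labelled deleted and 4667 bases in the wild-type library, where 2 transcripts were listed.

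The co-receptors differed in opposite directions. ENG had 108 counts (6.63 FPKM) in the library labelled deleted and 44 counts (2.75 FPKM) in the wild-type library, and was 2.40-fold higher (1.70 to 3.53). Of all compared genes, 344, or 2.39%, had a ratio at least as high. TGFBR3, also called betaglycan, which presents TGFB2 to TGFBR2, had 170 counts (4.88 FPKM) in the library labelled deleted and 237 counts (6.88 FPKM) in the wild-type library, and was 1.41-fold lower (1.15 to 1.73). Of all compared genes, 11.5% had a ratio at most as low. The estimated counts of TGFBR3 were not whole (169.69 in the library labelled deleted and 237.16 in the wild-type library), so some reads were shared with other genes. ENG held 38.8% (33.1 to 44.9) of the counts of the pair in the library labelled deleted and 15.7% (11.6 to 20.4) in the wild-type library, with no overlap of the intervals, in a pair chosen after the values were seen. By FPKM, ENG over TGFBR3 was 1.36 in the library labelled deleted and 0.400 in the wild-type library. In the library labelled deleted the Poisson interval of ENG began at 5.44 FPKM and that of TGFBR3 ended at 5.67 FPKM. These overlapped, so which of the pair was higher there was not resolved. In the wild-type library the interval of ENG ended at 3.69 FPKM, below that of TGFBR3, which began at 6.03 FPKM.

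Across the 9 genes the order of levels was similar in both libraries. In the library labelled deleted it ran TGFB1, TGFBR1, TGFB2, LTBP1, ACVRL1, ENG, TGFBR2, TGFBR3 and TGFB3, where the Poisson intervals of neighbours overlapped for ACVRL1 with ENG, ENG with TGFBR2 and TGFBR2 with TGFBR3. In the wild-type library it ran TGFB1, TGFBR1, LTBP1, TGFB2, TGFBR3, ACVRL1, TGFBR2, ENG and TGFB3, with overlaps for TGFBR1 with LTBP1, TGFBR3 with ACVRL1 and ACVRL1 with TGFBR2. ENG stood at place 6 in the library labelled deleted and at place 8 in the wild-type library, and TGFBR3 at place 8 in the library labelled deleted and place 5 in the wild-type library. The Poisson intervals of ENG and TGFBR3 overlapped in the library labelled deleted, so their order there was not resolved. The genes nearest to ENG by distance on log2(FPKM + 1) over the 2 libraries were PCSK5, IGFL3 and H2AJ, at distances of 0.073, 0.094 and 0.095. PCSK5 had 7.01 FPKM in the library labelled deleted and 2.70 FPKM in the wild-type library. A likeness over 2 libraries says only that both levels were close.

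**Figure D3:**
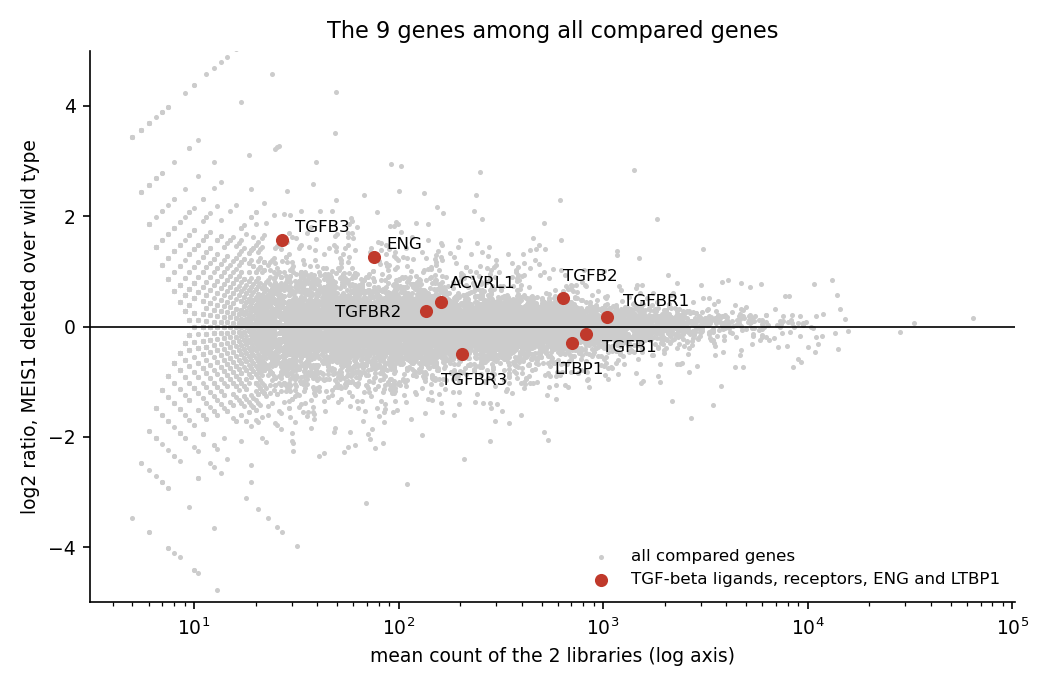
Mean count of the libraries (x axis, log scale) against log2 ratio, MEIS1 deleted over wild type (y axis), for all 14381 compared genes (grey) and the 9 genes described (red); 11 grey genes lie beyond the axis limit of 5. ENG and TGFB3 sit towards the upper edge of the cloud at low counts, and the abundant TGFB1, TGFBR1 and LTBP1 close to 0.

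The promoters of the pair of genes that were at least 2-fold different are shown because they let the upstream sequence be read beside the values. They are the 250 bases before each annotated start in RefSeq, build GRCh38.p14, on the minus strand, and TGFB3 has 2 annotated starts, between which the tables do not distinguish. Capitals mark GGAA (the ETS core) and CAGAC (a SMAD motif), read on either strand, so TTCC and GTCTG are marked too; TGACAG (MEIS) and GATAA (GATA) were also searched on both strands. No motif match overlapped another in these windows. The windows are chr9:127854659-127854908 for ENG, and chr14:75981996-75982245 and chr14:75983012-75983261 for TGFB3.
ENG: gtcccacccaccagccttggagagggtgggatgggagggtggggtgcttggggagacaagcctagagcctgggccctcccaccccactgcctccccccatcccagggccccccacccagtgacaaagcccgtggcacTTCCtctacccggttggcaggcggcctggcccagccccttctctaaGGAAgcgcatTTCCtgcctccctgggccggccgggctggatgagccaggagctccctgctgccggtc
TGFB3 start A: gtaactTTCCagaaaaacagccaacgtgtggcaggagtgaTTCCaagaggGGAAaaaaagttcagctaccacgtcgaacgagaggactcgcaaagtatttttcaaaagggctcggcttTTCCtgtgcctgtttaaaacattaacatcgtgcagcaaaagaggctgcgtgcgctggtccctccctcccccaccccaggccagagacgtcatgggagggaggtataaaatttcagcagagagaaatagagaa
TGFB3 start B: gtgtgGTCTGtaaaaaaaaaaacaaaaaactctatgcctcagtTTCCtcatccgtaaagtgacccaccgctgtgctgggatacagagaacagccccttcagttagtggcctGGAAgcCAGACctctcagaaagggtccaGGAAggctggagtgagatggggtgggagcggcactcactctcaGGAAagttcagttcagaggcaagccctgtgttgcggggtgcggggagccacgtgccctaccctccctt

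GGAA matched 3 times in the ENG window and 4 times in each TGFB3 window. It is a frequent string: 92.7% of 35114 windows of the same length hold it, with a median of 3 matches. CAGAC matched 2 times in the TGFB3 window of start B and in neither of the others, and 38.0% of all windows hold it. TGACAG and GATAA matched in none of these 3 windows, beside 13.0% and 20.4% of all windows. Over the 19 windows of the 8 members with an entry, TGACAG matched in 1 window of LTBP1 and GATAA in 1 of TGFBR1. A match is a string of letters and no evidence of binding, and a window without a match says nothing of the factor.

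ENG and ACVRL1 are both genes of endothelium, and endothelial markers moved with them. Of 13 markers other than ENG and ACVRL1, 10 were compared, 9 were higher and 1, VWF, lower, beside 15.4% higher and 14.7% lower of all compared genes, with a median log2 ratio of 1.16, and their summed level was 311 FPKM in the library labelled deleted and 201 FPKM in the wild-type library. These 10 all had at least 50 counts in a library, where the shares over all genes were 17.4% and 16.7%. CLDN5 was listed in neither table and ROBO4 had 7 counts in the library labelled deleted and 0 in the wild-type library. CDH5 (VE-cadherin) had 410 counts in the library labelled deleted and 104 in the wild-type library, a log2 ratio of 1.95 (1.65 to 2.29). KDR, the VEGF receptor that also marks mesoderm, had 5184 counts in the library labelled deleted and 4489 in the wild-type library, a log2 ratio of 0.19 (0.13 to 0.25). At 160 FPKM in the library labelled deleted and 141 FPKM in the wild-type library, KDR made up most of the summed level of the markers. ENG, at a log2 ratio of 1.26 (0.76 to 1.82), lay among these markers, and ACVRL1, at 0.44 (0.12 to 0.77), near the lower end. The part of endothelial cells in the ENG and ACVRL1 values was not tested, and in bulk RNA more cells of a type and more RNA per cell cannot be told apart.

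**Figure D4:**
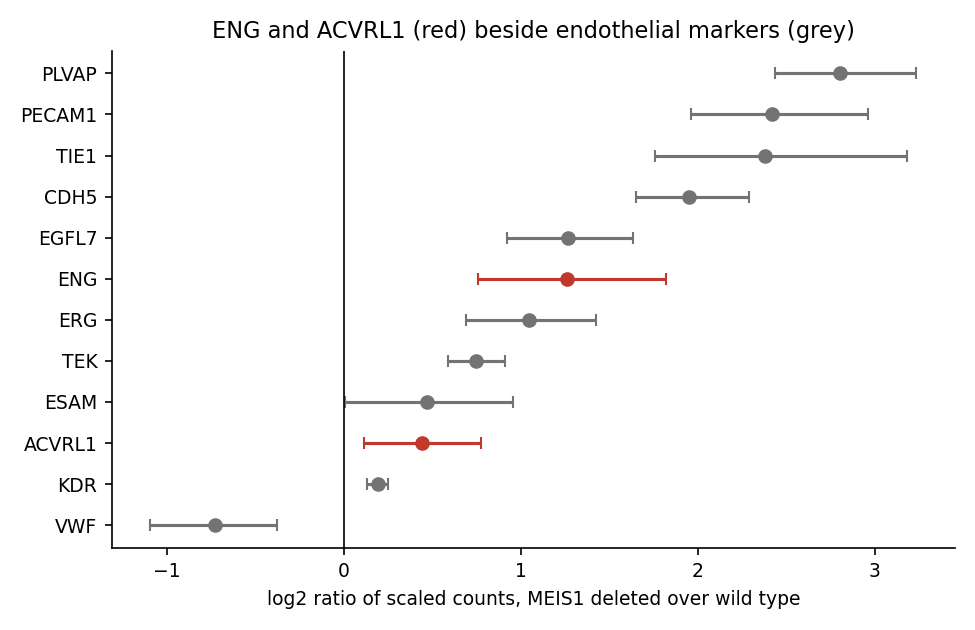
Log2 ratio of scaled counts (x axis), the library labelled MEIS1 deleted over wild type, for the 10 endothelial markers compared (grey) with ENG and ACVRL1 (red); bars are exact 95% counting intervals. PLVAP, PECAM1, TIE1, CDH5 and EGFL7 lie above ENG, which is at 1.26, ACVRL1 at 0.44 lies above KDR, and VWF is the marker below 0, at -0.72.

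Markers of blood cells, in which ENG is also found on early progenitors, were mostly at low counts. The counts of markers called that follow stand beside 15.4% higher and 14.7% lower of all compared genes. Among genes with at least 50 counts in a library these shares were 17.4% and 16.7%. HBG1 and HBZ were listed in neither table, HBE1 had 2 counts in the library labelled deleted and 0 in the wild-type library, and PTPRC (CD45) had 7 in the library labelled deleted and 6 in the wild-type library. Of the 10 markers 5 were compared, with 3 higher and 0 lower, and the summed level was 14.7 FPKM in the library labelled deleted and 7.62 FPKM in the wild-type library. Primitive streak markers were lower where ENG was higher: 4 of 4 compared of 6 symbols, with a summed level of 33.2 FPKM in the library labelled deleted and 125 FPKM in the wild-type library. Of 6 pluripotency markers 5 were compared, 4 were lower and 0 higher, with sums of 551 FPKM in the library labelled deleted and 679 FPKM in the wild-type library. Endoderm markers summed to 48.8 FPKM in the library labelled deleted and 73.2 FPKM in the wild-type library, with 1 higher and 2 lower of 5 compared. The part of these cell types in the values of the 9 genes was not tested.

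BMP10, a ligand of the ENG and ACVRL1 receptor complex made by heart muscle, was the gene of this arm that differed most. It had 154 counts (18.5 FPKM) in the library labelled deleted and 40 counts (4.90 FPKM) in the wild-type library, a log2 ratio of 1.90 (1.42 to 2.47). GDF2, which encodes BMP9, had 1 count in each library. Most partners of ENG and ACVRL1 were not called higher: BMPR2 had 797 counts in the library labelled deleted and 865 in the wild-type library, with a log2 ratio of -0.13 (-0.27 to 0.01), and BMPR1A, a BMP type I receptor, was at -0.59 (-0.75 to -0.43). SMAD1 and SMAD5, which carry the signal, had log2 ratios of -0.02 (-0.33 to 0.29) and -0.12 (-0.26 to 0.02), while SMAD9 was at 0.57 (0.34 to 0.80). ACVR2B, a type II receptor, was at a log2 ratio of -0.26 (-0.39 to -0.14). BMPR2, ACVR2B, SMAD5 and SMAD9 had estimated counts that were not whole in a library or more, so some of their reads were shared with other genes. Of 11 genes of this list 10 were compared, of which 2 were higher, 2 were lower and 6 could not be called because 1 lay inside their interval, beside 15.4% higher and 14.7% lower of all compared genes. The 10 compared all had at least 50 counts in a library, where the shares over all genes were 17.4% and 16.7%. The median log2 ratio was -0.081.

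Genes that respond to ACVRL1 signalling in endothelium split in direction. Of 13 compared, 6 lay above a ratio of 1 by their interval, 3 below it and 4 on both sides, with a median log2 ratio of 0.26, beside 15.4% higher and 14.7% lower of all genes. Most of the 13 had at least 50 counts in a library, where the shares over all genes were 17.4% and 16.7%. The arterial connexin gene GJA5 was at a log2 ratio of 0.59 (0.31 to 0.88), and the Notch and BMP effectors HEY1 and HEY2 were at 0.53 (0.13 to 0.95) and 0.49 (0.19 to 0.80). ID1, a direct SMAD target, had 804 counts in the library labelled deleted and 1042 in the wild-type library, a log2 ratio of -0.39 (-0.52 to -0.25), and ID3 was at -0.47 (-0.64 to -0.31). SMAD6, an inhibitory SMAD, was at a log2 ratio of 0.09 (-0.07 to 0.24).

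Storage and activation genes were found on both sides. Of 21 symbols 18 were compared, of which 8 (44.4%) were higher, 4 (22.2%) were lower and 6 could not be called, beside 15.4% higher and 14.7% lower of all compared genes, and the median log2 ratio was 0.28. Most of these genes had at least 50 counts in a library, where the shares over all genes were 17.4% and 16.7%. LRRC32, which encodes GARP, a membrane protein that tethers latent TGF-beta to the cell surface, had 496 counts (22.1 FPKM) in the library labelled deleted and 219 counts (9.92 FPKM) in the wild-type library, a log2 ratio of 1.16 (0.93 to 1.40). BGN (biglycan), a matrix proteoglycan that binds TGF-beta, was at a log2 ratio of 1.03 (0.69 to 1.39), with counts that were not whole. LRRC32 and LTBP1 are alternative anchors of the latent ligand, and their ratios had opposite signs, in a pair chosen after the values were seen. A shift between anchors was not tested.

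Integrins that free the latent ligand differed by subunit. ITGAV, the alpha chain they share, had 5630 counts in the library labelled deleted and 4377 in the wild-type library, a log2 ratio of 0.35 (0.29 to 0.41), and ITGB1 was at 0.57 (0.54 to 0.61). The beta chain gene ITGB8 had 119 counts in the library labelled deleted and 177 in the wild-type library, a log2 ratio of -0.58 (-0.94 to -0.24), with counts that were not whole. ITGB6, the activating beta chain of epithelia, was listed in neither table.

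Genes that act inside the cell were split between directions. Of 22 transducers and regulators, all compared, 6 (27.3%) were higher, 7 (31.8%) were lower and 9 could not be called, beside 15.4% higher and 14.7% lower of all compared genes. All 22 had at least 50 counts in a library, where the shares over all genes were 17.4% and 16.7%. The median log2 ratio was -0.082. SMAD2, which carries the TGF-beta and activin signal, was at a log2 ratio of -0.06 (-0.21 to 0.09), SMAD3 at 0.36 (0.12 to 0.60) and their shared partner SMAD4 at -0.01 (-0.20 to 0.18). SMAD2 and SMAD4 had counts that were not whole. The inhibitory SMAD7 was at a log2 ratio of -0.10 (-0.36 to 0.15). PMEPA1, a target and feedback inhibitor of TGF-beta, had 116 counts in the library labelled deleted and 195 in the wild-type library, a log2 ratio of -0.76 (-1.11 to -0.43), and the SMAD co-repressor TGIF1 was at -0.59 (-0.79 to -0.40). The ubiquitin ligase gene SMURF2 was at a log2 ratio of 0.69 (0.53 to 0.85) and the deubiquitinase gene USP15 at 0.52 (0.26 to 0.78), both with counts that were not whole. The table's length of USP15 was 7423 bases in the library labelled deleted and 6589 bases in the wild-type library. From FPKM with a pseudocount of 1 its log2 ratio was 0.29.

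Target genes of TGF-beta and SMAD3 did not share a direction. Of 22 compared, 12 (54.5%) were higher, 3 (13.6%) were lower and 7 could not be called, beside 15.4% higher and 14.7% lower of all compared genes. Most of these targets had at least 50 counts in a library, where the shares over all genes were 17.4% and 16.7%. The median log2 ratio was 0.23. The matrix genes led in the higher direction: the collagen gene COL3A1 had 2498 counts in the library labelled deleted and 346 in the wild-type library, a log2 ratio of 2.83 (2.67 to 3.00), and TGFBI, a secreted matrix protein named for its induction by TGF-beta, was at 1.39 (1.17 to 1.61). TGM2, a transglutaminase, was at a log2 ratio of 1.48 (1.13 to 1.87), and the smooth muscle actin gene ACTA2 at 0.96 (0.67 to 1.28), with counts that were not whole. The table's length of ACTA2 was 1491 bases in the library labelled deleted and 1740 bases in the wild-type library. From FPKM with a pseudocount of 1 its log2 ratio was 1.13. Mesenchymal markers, among them ACTA2, were higher for 5 and lower for 0 of 9 compared of 10, with summed levels of 367 FPKM in the library labelled deleted and 295 FPKM in the wild-type library and DCN listed in neither. Their part in these values was not tested.

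**Figure D5:**
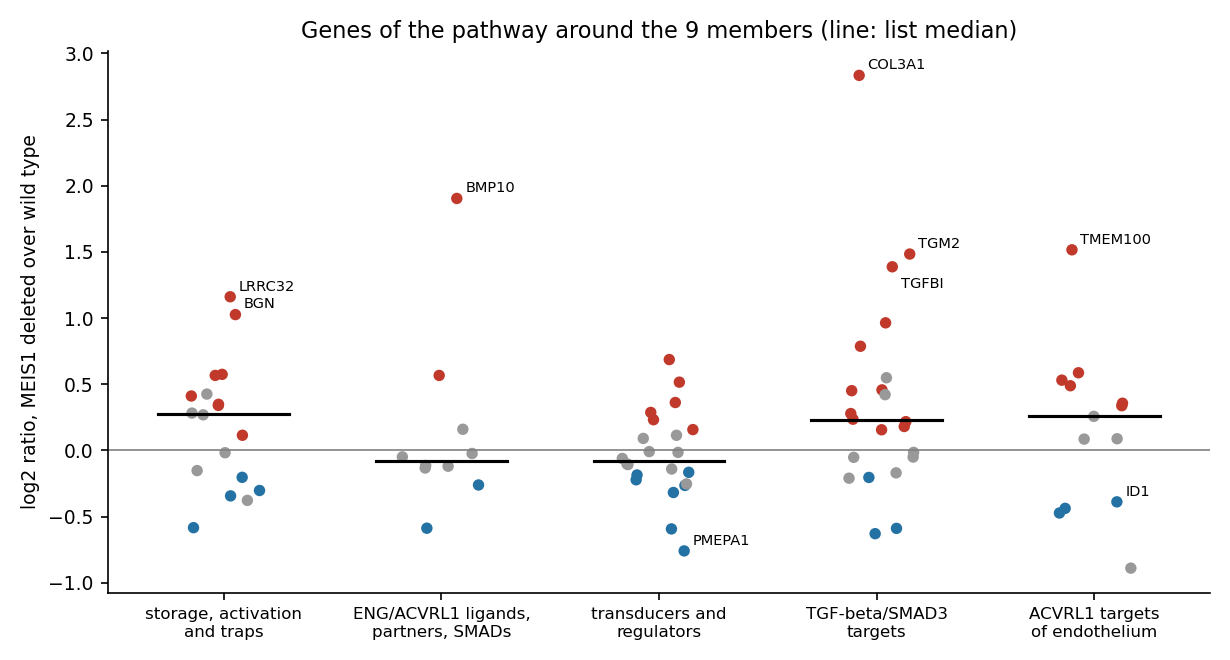
Log2 ratio, MEIS1 deleted over wild type (y axis), of every compared gene in 5 lists around the 9 members (x axis, points spread sideways for sight); red marks counting intervals above 0, blue below 0, grey those that include 0, and black lines the list medians. Medians lie between -0.082 and 0.28, with COL3A1 at 2.83 and BMP10 at 1.90 far above their lists and PMEPA1 the lowest of the transducers and regulators.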

How the data were processed

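RNA from 1 library labelled MEIS1-/- and 1 labelled wild type was measured. Per the file headers, the authors deposited FPKM, an expected count and a length for each gene, under its gene number. Expected counts are estimated counts, deposited without scaling, and rounded here to whole numbers. The deposited FPKM values are scaled to the length and total of each table. The submitters' processing notes name BWA, Bowtie, RSEM and hg19; their roles and versions are not given in the sources used here. A gene found in a single table was set to 0 in the other. Symbols came from RefSeq (GRCh38.p14) for 18413 of 18518 gene numbers.

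Totals of 5296431 and 5202877 counts were scaled by TMM with edgeR 4.0.16 under R 4.3.3 (ratio of effective sizes 1.01). No model was fitted. Ratios used a pseudocount of 1, with Clopper-Pearson 95% intervals without it, conditional on the sum of the counts. Levels have exact Poisson intervals. All intervals cover counting error only, since each genotype had 1 library. PCR copies are not independent molecules, so the intervals may be too narrow even for counting error. The computation was tested on simulated data.

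The members, lists and rules were chosen with earlier results of these data known. Named genes were all 9 members, up to 4 of each pathway list with the largest absolute ratio among those with at least 50 counts, and a fixed set of partners; marker lists were given as counts and sums, and the markers named were chosen after their values were seen. Promoter sequences are from RefSeq, with entries for 8 of 9 members; protein sequences were not used here, and 2 genes of the lists are not reported here by name. Alternatives covered scaling (also DESeq2 1.42.0 size factors), FPKM, pseudocounts, rounding, minimum counts, intervals and fold limits.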

Additional observations from a re-analysis of the deposited data

How the results depend on the processing

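All alternatives were listed with earlier results of these data known. The log2 ratios of the 9 members stayed within their main counting intervals in 72 of 72 values, and each kept its call under every scaling, pseudocount and interval tried on counts. Across all alternatives, ENG ranged from 1.02 to 1.28 and TGFB3 from 0.95 to 1.61, the low ends from FPKM with a pseudocount of 1. The 72 values were not all free to differ. A wider interval leaves every ratio as it was, and leaving out the rounding changes no member with whole counts. Each other scaling shifted all ratios by the same small amount. List medians moved by less than 0.1 in 45 of 45 values. The order of levels was the same from scaled counts per kilobase. Within a library these differ from FPKM by close to a constant factor, so the order could hardly change and was not tested by this.

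With a 99% interval all genes higher and lower numbered 1485 and 1442, against 2212 and 2117 in the main comparison, and genes of the pathway lists 32 and 16, against 34 and 19; with a minimum of 50 counts all genes numbered 1891 and 1811. Counts moved by over 1.5 times where a fold limit replaced or joined the interval. Members higher and lower numbered 5 and 2 in the main comparison, 2 and 0 at 2-fold and at 1.5-fold, 1 and 0 from FPKM (pseudocount 1) at 2-fold, 2 and 0 at 1.5-fold, and 2 and 0 from FPKM (pseudocount 0.1) at either fold. All genes numbered 2212 and 2117, then 417 and 424 at 2-fold, 827 and 893 at 1.5-fold, 181 and 183 from FPKM (pseudocount 1) at 2-fold, 691 and 765 at 1.5-fold, and 483 and 490 (pseudocount 0.1) at 2-fold, 1149 and 1305 at 1.5-fold. Genes of the pathway lists numbered 34 and 19, then 7 and 0 at 2-fold, 11 and 5 at 1.5-fold, 6 and 0 from FPKM (pseudocount 1) at 2-fold, 10 and 2 at 1.5-fold, and 8 and 0 (pseudocount 0.1) at 2-fold, 11 and 6 at 1.5-fold. These limits drop smaller differences by their construction. No paired analysis was possible because each genotype had 1 library, so there were no pairs of replicates. Depth limits TGFB3 most, with 41 counts in the library labelled deleted and 13 in the wild-type library, and a minimum of 50 counts leaves it out.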
